A study of Mus musculus with 46 samples.

Results

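Fatty acid oxidation and PPAR alpha target genes are described here as a set of 45 named mouse genes, listed for their known role in breaking down fatty acids or as targets of the receptor PPAR alpha. The rule took the rows of these genes in each of the 4 deposited expression tables, which hold 55774 genes (the inducible knockdown table and both liver tables) or 56775 genes (the conventional knockdown table). All 45 were found in every table. They fall into 3 regulators, 4 genes of uptake, binding and activation, 5 of the carnitine shuttle, 11 of mitochondrial β-oxidation, 3 of electron transfer, 6 of peroxisomal β-oxidation, 6 acyl-CoA thioesterases, 2 ω-hydroxylases and 5 other targets. A further 70 genes of the same pathways serve as a wider list.

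PPAR alpha is a nuclear receptor that binds fatty acids, pairs with the retinoid X receptor and switches on genes of fatty acid breakdown in the liver, most strongly during fasting. Long-chain fatty acids are activated to acyl-CoA, carried into mitochondria as carnitine esters, and shortened in repeated cycles of dehydrogenation, hydration, dehydrogenation and thiolysis, with electrons passed on through the electron transfer flavoprotein. Peroxisomes shorten very long chains by a parallel route, cytochromes of the Cyp4a family hydroxylate the far end of the chain, and thioesterases release the free acid again.

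The study examined Falcor, a long noncoding RNA, for its function in nuclear speckles, for a joint role with the protein ZC3H11A, and for its role under normal physiological and pathological conditions. RNA was sequenced from 46 libraries, 27 of AML12 cells and 19 of liver. AML12 is an immortalized mouse hepatocyte line, derived from a mouse transgenic for human TGF alpha. All libraries were rRNA-depleted and strand-specific, per the labels' protocols.

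In the inducible design, AML12 cells carried a Falcor hairpin or a control hairpin, and each line was sampled untreated, with doxycycline added, and in a state labelled restored, with doxycycline marked as minus, in 3 libraries per line and state. In the conventional design, AML12 cells carried a Falcor hairpin, a ZC3H11A hairpin or a control hairpin, in 3 libraries each. Livers came from Falcor KO and control mice in 2 tables named NCD and HFD, abbreviations that the labels do not spell out: 4 Falcor KO and 4 control livers in the NCD table, and 6 Falcor KO and 5 control livers in the HFD table. The labels do not say whether a line is 1 clone or pooled cells, nor the hairpin sequences, the age, sex or strain of the mice, or the deleted part of the gene. They do not say that libraries of a group came from separate cultures, so the spread that p-values measure may be technical.

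Falcor (9030622O22Rik, a lincRNA at chr2:147944740-148040203 on the minus strand, mm10) was lower in doxycycline-treated Falcor hairpin cells than in doxycycline-treated control hairpin cells (−0.78 ± 0.14, log2 fold change ± SE), but higher in the Falcor hairpin line in the untreated (0.75) and restored (0.86) states. In the conventional design it had 7, 4 and 5 counts under the Falcor hairpin and 4, 3 and 6 under the ZC3H11A hairpin, against 38, 11 and 24 under the control hairpin. It was listed at 0 in all 10 Falcor KO livers. Zc3h11a averaged 8.24 ± 5.15 CPM under its own hairpin and 37.5 ± 4.51 CPM under the Falcor hairpin, against 63.6 ± 4.36 CPM under the control hairpin (SD, n = 3 each). Conventional libraries held 4474760 to 8837581 counts. The other tables hold values whose columns sum to 833910 to 975752, so their depth is unknown. Of 10 hepatocyte markers, Apoa2, Fgb and Cps1 were at 0 in every library of the inducible table and Apoa2 and Fgb in every conventional library, while none was at 0 in a liver group. The biliary genes Krt7, Krt19, Sox9 and Spp1 were detected in AML12 cells, with summed scaled values of 1018 to 1589 in the inducible table.

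Not every member could be tested. Of 45 members, 10 had a mean below 3 in the inducible table and were left out: Acot3, Acot12, Cyp4a10, Cyp4a14, Fabp1 and Slc27a2 were listed at 0 in all 18 libraries, and Ehhadh, Acot4, Bdh1 and Cd36 never exceeded 4. A further filter on low counts left out 9 in the conventional table (Acaa1b, Acot3, Acot4, Acot12, Cyp4a10, Cyp4a14, Bdh1, Fabp1 and Slc27a2). In liver, 3 were left out in the NCD table (Ppargc1a, Acot3, Pdk4) and 6 in the HFD table (Ppargc1a, Acot1, Acot2, Acot3, Acot4, Pdk4). Fabp1, the liver fatty acid binding protein, and Slc27a2, a very long-chain acyl-CoA synthetase, were thus measured in liver, where Fabp1 averaged 806 ± 127 scaled units in NCD Falcor KO livers and 755 ± 48.2 in NCD control livers (SD, n = 4 each).

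Several members share sequence, which limits how far their values can be told apart. Of 45 members, 9 share over 20% of their 31-base stretches with other genes in the GENCODE M21 transcripts, among them Acaa1b (50.1%), Etfb (49.9%), Cyp4a10 (44.9%), Acot2 (37.8%), Hadhb (23.7%) and Acot1 (22.8%). Hadhb shares 19.5% of its stretches with Gm13910, whereas Hadha shares 0.674% with other genes. Acot2 shares 29.9% of its stretches with Acot1, and Acaa1b shares 40% with Acaa1a, so values of these pairs are uncertain. Several members are also neighbours. Acot1, Acot2, Acot3 and Acot4 lie together on chromosome 12 within gaps of 3542 to 58270 bases, and Acaa1a and Acaa1b lie 182582 bases apart on chromosome 9. Cyp4a10 and Cyp4a14 lie 22121 bases apart on chromosome 4, but Cyp4a14 shares only 1.99% of its stretches with other genes. Hadha, on the minus strand of chromosome 5, and Hadhb, on the plus strand, which encode both subunits of the mitochondrial trifunctional protein, start 85 bases apart, head to head. The sources used here do not say whether strand was used in quantification.

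The promoters of 5 members are shown because the results below turn on these genes: Cpt1a, which differed in direction between the designs, Acot2, which differed in direction between the hairpins, Acadm and Creb3l3, which had low levels under the conventional Falcor hairpin, and Hadhb, which starts beside Hadha. The Cpt1a promoter shown lies inside the annotated gene, past its start (chr19:3322334-3385733, plus strand). Of 2 Creb3l3 promoters the first is shown, which also lies inside the annotated gene (chr10:81084324-81098874, minus strand). The second, at chr10:81098823-81099122, spans the annotated gene start and holds neither AGGTCA nor TGACCT. Each runs from 250 bases before to 50 after the RefSeq start (GRCm38.p6), in transcript direction, and capitals mark the hexamer AGGTCA or its reverse complement TGACCT, the unit that PPAR alpha response elements repeat.
Cpt1a, chr19:3323051-3323350, plus strand: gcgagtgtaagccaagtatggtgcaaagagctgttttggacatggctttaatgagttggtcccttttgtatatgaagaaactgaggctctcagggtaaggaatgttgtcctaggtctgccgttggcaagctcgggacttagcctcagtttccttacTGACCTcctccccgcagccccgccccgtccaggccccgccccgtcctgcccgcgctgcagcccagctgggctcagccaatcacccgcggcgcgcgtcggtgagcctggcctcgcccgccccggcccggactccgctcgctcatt
Acadm, chr3:153944594-153944893, minus strand: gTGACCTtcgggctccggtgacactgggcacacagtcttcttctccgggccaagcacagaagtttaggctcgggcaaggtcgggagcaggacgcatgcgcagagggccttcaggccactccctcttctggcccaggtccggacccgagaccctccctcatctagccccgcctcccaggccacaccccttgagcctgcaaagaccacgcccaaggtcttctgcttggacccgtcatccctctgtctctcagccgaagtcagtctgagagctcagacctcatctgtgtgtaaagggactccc
Creb3l3, chr10:81092542-81092841, minus strand: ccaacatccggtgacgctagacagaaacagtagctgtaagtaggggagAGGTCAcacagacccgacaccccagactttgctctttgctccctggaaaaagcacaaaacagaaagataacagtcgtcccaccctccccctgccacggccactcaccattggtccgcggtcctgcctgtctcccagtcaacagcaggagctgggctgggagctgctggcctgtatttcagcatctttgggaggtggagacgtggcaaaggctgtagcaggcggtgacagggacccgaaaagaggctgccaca
Acot2, chr12:83987611-83987910, plus strand: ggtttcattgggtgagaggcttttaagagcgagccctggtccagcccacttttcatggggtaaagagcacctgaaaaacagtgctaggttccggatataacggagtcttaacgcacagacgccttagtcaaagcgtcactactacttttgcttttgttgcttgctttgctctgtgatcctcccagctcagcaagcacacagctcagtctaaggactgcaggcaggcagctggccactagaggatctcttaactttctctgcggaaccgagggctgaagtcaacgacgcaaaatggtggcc
Hadhb, chr5:30155003-30155302, plus strand: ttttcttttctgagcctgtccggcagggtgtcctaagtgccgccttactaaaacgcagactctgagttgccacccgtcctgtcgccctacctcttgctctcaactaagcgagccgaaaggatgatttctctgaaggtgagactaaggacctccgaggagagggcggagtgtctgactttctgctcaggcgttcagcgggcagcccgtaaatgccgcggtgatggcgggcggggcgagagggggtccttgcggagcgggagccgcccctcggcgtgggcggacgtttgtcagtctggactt

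The Hadhb window also spans the annotated start of Hadha on the other strand. Promoters were found for 37 of 45 members, 41 promoters in all. The hexamer occurred on either strand in 13 of these, which belong to 12 genes, against 16.3% of 32851 mouse promoters. The direct repeat of 2 such hexamers with 1 base of any kind between them occurred on either strand in 0 member promoters, against 0.0396% of all. The same repeat with any base at the fourth position of each hexamer occurred among member promoters in that of Fabp1 alone, against 0.381% of all promoters. The windows of Acot2 and Hadhb held none of these motifs, which says nothing about binding of the receptor.

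With doxycycline, the Falcor hairpin line had lower levels of most fatty acid oxidation genes than the control hairpin line. Of 35 members tested, 19 were lower, 5 were higher and 11 did not pass the test, with a median log2 fold change of −0.20. Over all 9840 genes tested in the same comparison, 27% were lower and 25.4% were higher, with a median of 0.00. Here and below, a gene is called at an adjusted p below 0.05 (limma, Benjamini-Hochberg over all genes tested). Values of the inducible and liver tables are given as scaled values, the deposited value divided by a library factor, and fold changes as differences of log2(scaled value + 1), which understate the change of low genes.

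Of the regulators, Ppara itself stood at 7.36, 9.53 and 7.32 in the Falcor hairpin line with doxycycline, against 9.46, 10.5 and 9.42 in the control hairpin line. The groups overlapped, and the difference of −0.26 ± 0.13 did not pass the test (limma adjusted p = 0.105). Ppargc1a, the coactivator PGC-1 alpha, and Creb3l3, a hepatic transcription factor that works with PPAR alpha, were called lower (−0.59 ± 0.17 and −0.89 ± 0.22), both from values of 2.1 or less in every library. Cpt1a, the gatekeeper of mitochondrial import, stood at 97.8, 97.4 and 100 in the Falcor hairpin line with doxycycline, against 140, 141 and 142 in the control hairpin line. All Falcor hairpin libraries lay below all control libraries (−0.51 ± 0.08, limma adjusted p = 2.87e-05). Of the other carnitine genes, Crat and Crot were slightly lower (−0.19 and −0.24), Cpt2 was slightly higher (0.19), and Slc25a20, the carnitine carrier, had a difference of −0.11 ± 0.05 that missed the threshold (limma adjusted p = 0.0614). The Cpt2 call was lost without Falcor hairpin replicate 3 (0.12, adjusted p = 0.12).

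Among the enzymes of mitochondrial β-oxidation and electron transfer, the largest decreases with doxycycline were those of Hadhb, Etfa and Etfdh. Hadhb stood at 52.6, 54 and 50.2 in the Falcor hairpin line, against 82, 85 and 85.8 in the control hairpin line. The groups were far apart (−0.68 ± 0.04, limma adjusted p = 2.08e-10), whereas its head-to-head neighbour Hadha was lower by a smaller step (−0.19 ± 0.05). All 3 electron transfer genes were lower: Etfa at 65.2, 62.5 and 69.1 in the Falcor hairpin line, against 104, 104 and 102 in the control hairpin line, and Etfdh and Etfb with log2 fold changes of −0.52 and −0.21. Acadm, the medium-chain acyl-CoA dehydrogenase, was also lower (−0.47 ± 0.05). Of 11 mitochondrial β-oxidation genes 6 were lower, 1 was higher (Acads, short-chain dehydrogenase, 0.23 ± 0.05) and 4 were not called. Of 5 peroxisomal genes tested, Eci2 and Hsd17b4 were lower (−0.31 and −0.20), Acaa1a was higher (0.23) and 2 were not called.

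The other targets diverged with doxycycline. Angptl4, a secreted inhibitor of lipoprotein lipase, stood at 3.15, 3.18 and 4.19 in the Falcor hairpin line, against 9.46, 9.44 and 7.32 in the control hairpin line, without overlap (−1.11 ± 0.10, limma adjusted p = 1.18e-07). Plin2, which coats lipid droplets, was lower (−0.35 ± 0.03). Acot1, a cytosolic thioesterase, went the other way, at 82, 90 and 84.8 in the Falcor hairpin line, against 67.3, 68.2 and 61.7 in the control hairpin line (0.38 ± 0.04, adjusted p = 7.7e-07). Pdk4, a pyruvate dehydrogenase kinase, was called higher (0.40 ± 0.13) with values of 1.05 to 2.12 in all 6 libraries and with overlapping groups. That call was lost without control hairpin replicate 1 (limma adjusted p = 0.0962) or replicate 2 (adjusted p = 0.0975).

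Before doxycycline the same lines differed in the opposite direction. In the untreated state 25 of 35 members were higher in the Falcor hairpin line, 3 were lower and 7 were not called, with a median log2 fold change of 0.34. The background was 30.1% higher and 35.2% lower of all genes tested. In the restored state 25 members were higher, 5 were lower and 5 were not called (median 0.28), against a background of 25.7% higher and 32.3% lower. Without rescaling of libraries the median of all genes stood at 0.16 in the untreated and 0.13 in the restored comparison, in place of −0.02 in each. The members then split into 29 higher and 1 lower and into 25 higher and 3 lower. All genes then split into 4467 higher and 2141 lower untreated, in place of 2961 and 3468, and into 4016 and 1959 restored, in place of 2528 and 3174.

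Pdk4 had the largest difference of all members before treatment. It stood at 51.8, 52.6 and 52.4 in untreated Falcor hairpin cells, against 9.86, 10 and 10.1 in untreated control hairpin cells (2.28 ± 0.13, limma adjusted p = 2.49e-10). In the restored state it stood at 8.33, 9.38 and 8.33 in the Falcor hairpin line, against 2.08, 3.13 and 3.11 in the control hairpin line, again without overlap. Crot, which makes carnitine esters of chains shortened in peroxisomes, stood at 55.5, 53.5 and 55.1 untreated and 51.8, 55.3 and 52.7 restored in the Falcor hairpin line, against 24.1, 25.1 and 23.2 untreated and 18.7, 18.8 and 18.7 restored in the control hairpin line. These are log2 differences of 1.15 ± 0.04 and 1.46 ± 0.04. Cpt1a was higher by 0.79 ± 0.08 untreated and 0.63 ± 0.08 restored, at 258, 249 and 248 in untreated Falcor hairpin cells, against 119, 160 and 160 in untreated control hairpin cells.

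Ppara stood at 14.8, 13.4 and 13.6 in untreated Falcor hairpin cells, against 6.57, 11 and 10.1 in untreated control hairpin cells (0.57 ± 0.13, adjusted p = 0.000974), and did not differ beyond the spread in the restored state (−0.15 ± 0.13, adjusted p = 0.335). Untreated control hairpin replicate 1, which holds the lowest Ppara and Cpt1a values of its group, correlated least with its group (mean r = 0.98). Without it 26 members were higher and 4 were lower in the untreated comparison. Among the other members, Creb3l3 (1.03), Acot1 (0.88), Vnn1, a pantetheinase (0.84), and Ppargc1a (0.82) were higher before treatment, and Acot1 (1.09), Ppargc1a (1.35), Acadm (0.68), Acot2 (0.66) and Acsl1 (0.64) in the restored state. Plin2 was lower in the Falcor hairpin line in the untreated (−0.27 ± 0.03) and restored (−0.43 ± 0.03) states as well, and so were Acads (−0.26 and −0.16) and Etfb (−0.24 and −0.27). Eci1 (−0.20) and Echs1 (−0.29) were lower in the restored state. Without rescaling the Acads calls of both states, the untreated Etfb call and the restored Eci1 call were lost, and the restored Acads call was also lost without control hairpin replicate 3 or without Falcor hairpin replicate 1 or 3 (limma adjusted p of 0.0539 to 0.0822).

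**Figure D1:**
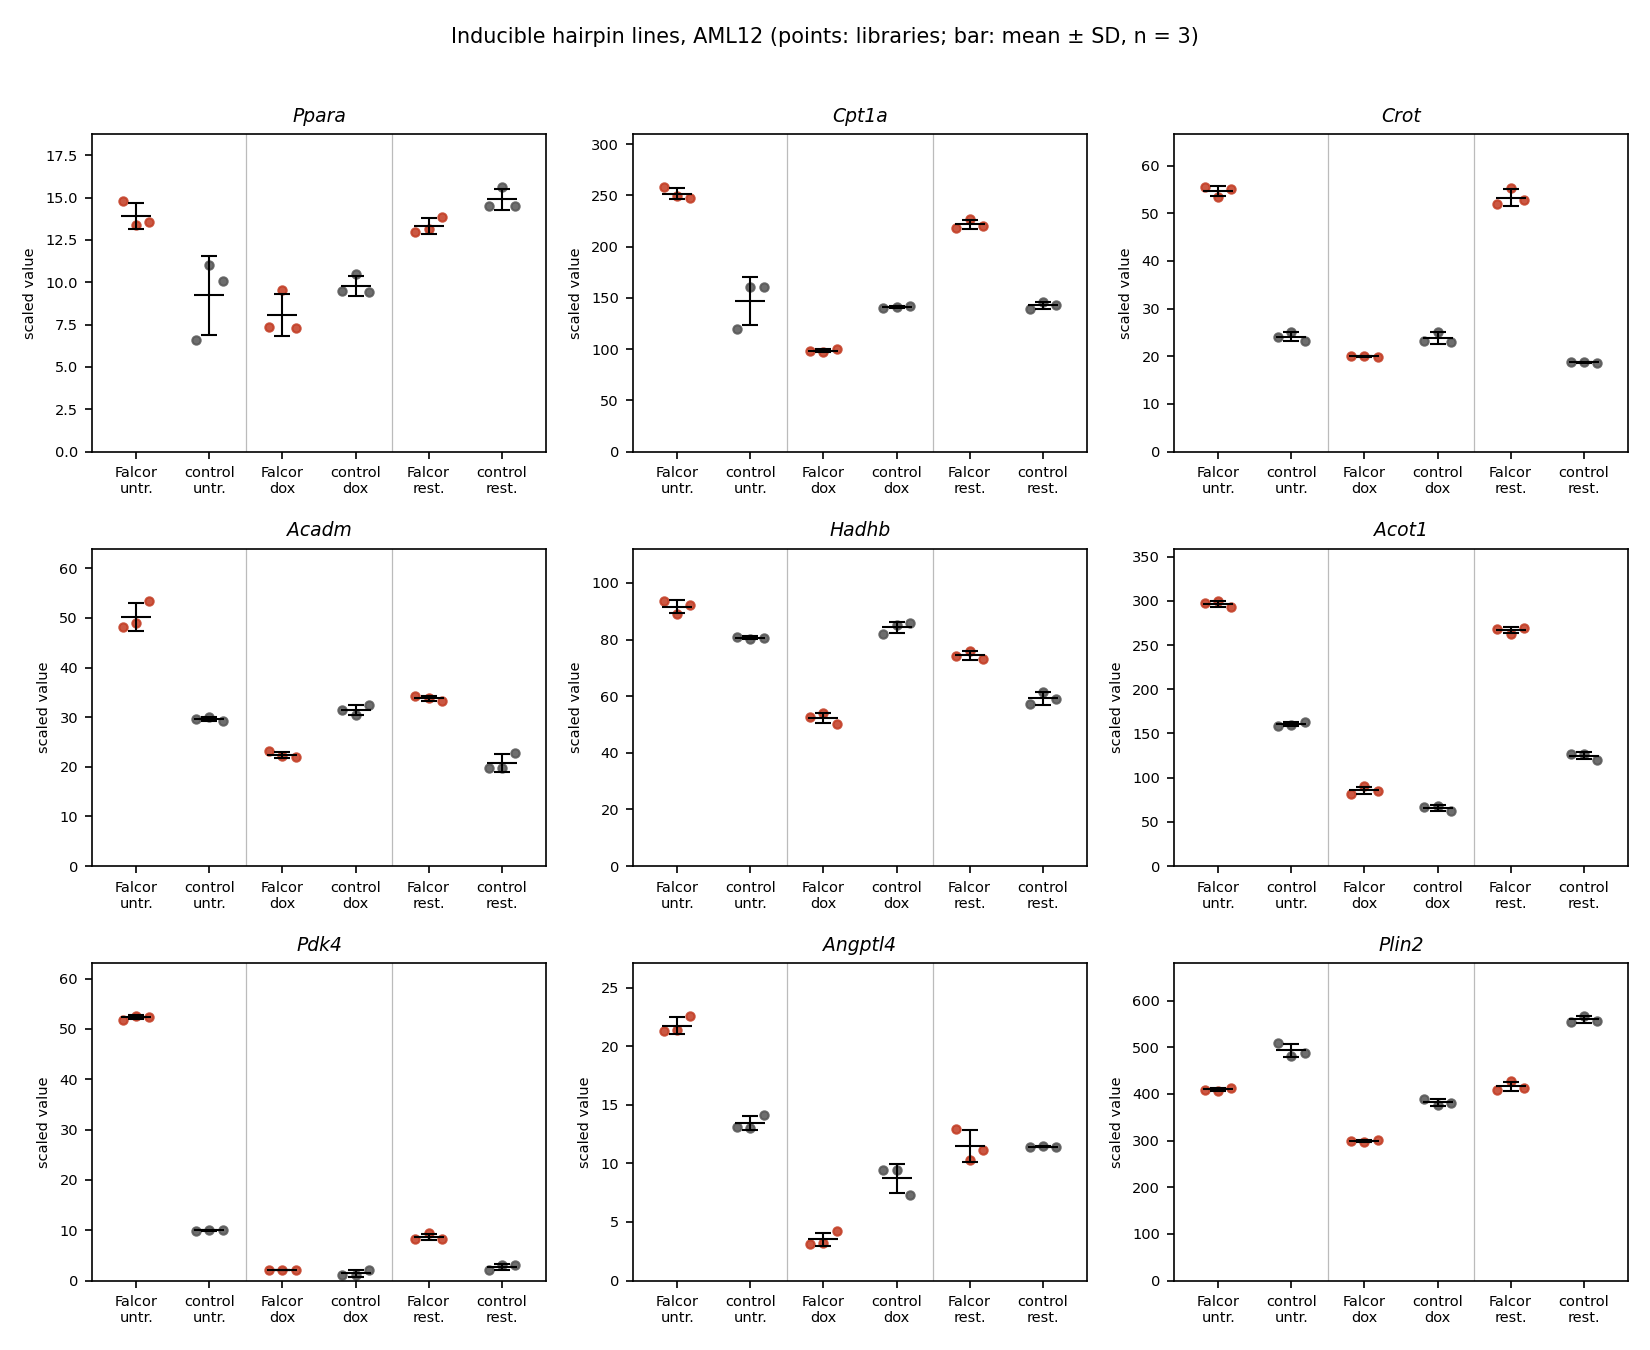
Scaled values (vertical axes, from 0) of 9 members in the inducible lines, by state from left to right, with the Falcor hairpin (red) left of the control hairpin (grey) in each state; points are libraries and bars the mean ± SD of 3. Cpt1a, Acadm, Hadhb and Angptl4 lie above the control hairpin line before doxycycline and below it with doxycycline, and Plin2 lies below it in all 3 states.

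Within the Falcor hairpin line, doxycycline lowered almost the whole set. Of 35 members 32 fell, 0 rose (also 0 at an unadjusted p below 0.05 in limma, against 39.5% of all genes, and 0 without rescaling) and 3 were not called, with a median log2 fold change of −0.80. The background was 35.5% lower and 38.8% higher. In the control hairpin line 22 members fell with doxycycline, 3 rose and 10 were not called (median −0.31), against a background of 32.5% lower and 34% higher. From the doxycycline to the restored state, 32 members rose, 1 fell and 2 were not called in the Falcor hairpin line (median 0.57), with a background of 34.1% higher and 38.1% lower, and 20 rose, 11 fell and 4 were not called in the control hairpin line (median 0.27), with a background of 39.6% higher and 34.2% lower. These comparisons share the doxycycline libraries of each line, and their values stand side by side only. Without rescaling, all genes split into 2635 higher and 4695 lower for doxycycline in the Falcor hairpin line and into 4404 and 2636 for the restored against the doxycycline state, and the members into 35 lower, and into 33 higher and 1 lower.

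In the Falcor hairpin line Pdk4 fell most, to 2.1, 2.12 and 2.09 with doxycycline, against 51.8, 52.6 and 52.4 untreated (−4.10 ± 0.13, limma adjusted p = 2.69e-14). Creb3l3 stood at 8.33, 8.91 and 9.04 untreated, at 0, 0 and 1.05 with doxycycline and at 5.55, 4.69 and 5.55 restored in the Falcor hairpin line. Angptl4 stood at 21.3, 21.4 and 22.6 untreated, 3.15, 3.18 and 4.19 with doxycycline and 13, 10.3 and 11.1 restored. For these genes the doxycycline values were the lowest of the 3 states in every library. Pdk4 also fell in the control hairpin line, where its log2 fold change of −2.22 was the lowest of all members tested. Acot1 and Acot2 moved with doxycycline in both lines as well. Acot1 fell by 1.78 in the Falcor hairpin line and by 1.28 in the control hairpin line, and Acot2 fell by 1.62 and by 1.57 on the log2 scale. In the control hairpin line the members that rose with doxycycline were Vnn1 (0.62), Acsl1 (0.24) and Etfa (0.22).

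The restored state did not return every member to its untreated level. In the Falcor hairpin line 16 of 35 members were lower and 1 was higher in the restored than in the untreated state, and 18 were not called (median −0.15, background 23.8% lower and 28.6% higher). Pdk4 remained lower by 2.46 on the log2 scale in that line, and Angptl4 fell by 0.87, Vnn1 by 0.78 and Acaa1b by 0.69, while Acads was higher (0.33). In the control hairpin line 15 were lower, 7 were higher and 13 were not called (median −0.17, background 22.8% lower and 27.2% higher). Pdk4 was lower there too (−1.56), as was Acot2 (−0.94), while Ppara was higher (0.66 ± 0.13, limma adjusted p = 0.000423).

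The difference between lines was tested directly against the untreated state, as the hairpin effect with doxycycline minus the hairpin effect without it. Of 35 members 27 had a negative term, 1 a positive term and 7 were not called, with a median of −0.50, against a background of 30.9% negative and 34.1% positive. Against the restored state 25 were negative, 3 positive and 7 not called, with a median of −0.48, against a background of 28.7% negative and 31.8% positive. Both terms share the doxycycline libraries. The largest negative terms against the untreated state were those of Creb3l3 (−1.92 ± 0.31), Pdk4 (−1.88 ± 0.19), Angptl4 (−1.77 ± 0.14), Ppargc1a (−1.42 ± 0.24), Crot (−1.39 ± 0.06) and Cpt1a (−1.30 ± 0.11). Against the restored state, Crot had −1.70 ± 0.06, Acadm −1.15 ± 0.08, Cpt1a −1.14 ± 0.11 and Hadhb −1.0 ± 0.05. The positive terms that passed the test were those of Acads (0.49 and 0.39) and, against the restored state, Acaa1a (0.33) and Eci1 (0.21, lost without Falcor hairpin restored replicate 2 at a limma adjusted p of 0.0536, and without rescaling). Without rescaling, all genes split into 2257 positive and 4004 negative against the untreated state and into 2138 and 3693 against the restored state, and the members into 1 and 32 and into 2 and 28.

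The summed level of the set moved with these differences. The 45 members held 0.200 to 0.204% of all deposited values in doxycycline-treated Falcor hairpin libraries, against 0.235 to 0.239% in doxycycline-treated control hairpin libraries. They held 0.388 to 0.403% in untreated Falcor hairpin libraries, against 0.290 to 0.304% in untreated controls, and 0.358 to 0.359% in restored Falcor hairpin libraries, against 0.293 to 0.298% in restored controls. Summed hepatocyte markers were 748 to 760 in Falcor hairpin and 1036 to 1056 in control hairpin cells with doxycycline, 1710 to 1763 and 1180 to 1201 untreated, and 2158 to 2232 and 1318 to 1351 restored. Single markers did not all follow these sums: of 5 tested, 0 were higher and 4 lower in the Falcor hairpin line with doxycycline, 2 higher and 3 lower untreated (median −0.24), and 4 higher and 0 lower restored. With doxycycline in the control hairpin line, 3 were higher and 1 lower than untreated (median 0.41), although the sum was lower. Their part in the member results was not tested. In such bulk samples, fewer cells of a type and less RNA per cell cannot be told apart.

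Among the 70 further pathway genes, 52 were tested in the inducible table. With doxycycline 22 were lower and 8 higher in the Falcor hairpin line, untreated 12 were lower and 29 higher, and restored 9 were lower and 25 higher. Of all genes tested, 27% were lower and 25.4% higher with doxycycline, 35.2% and 30.1% untreated, and 32.3% and 25.7% restored. Mlycd, which removes malonyl-CoA, the inhibitor of Cpt1a, was lower with doxycycline in the Falcor hairpin line (−0.89 ± 0.07), and so were Acot13 (−0.71), Acsl4 (−0.70) and Acsl5 (−0.35). Txnip was higher by 1.45 untreated and 1.96 restored, and Pdk2 by 1.21 and 1.19.

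The conventional Falcor hairpin also lowered most of the set. Of 36 members tested, 22 were lower, 5 were higher and 9 were not called, with a median log2 fold change of −0.46 (edgeR quasi-likelihood test, Benjamini-Hochberg over all genes). Over 11871 genes tested, 26% were lower and 25.5% were higher, with a median of −0.00. The lower members comprised 2 of 3 regulators, 6 of 11 mitochondrial and 3 of 5 peroxisomal β-oxidation genes, 2 of 3 electron transfer genes, 2 of 3 thioesterases, 3 of 4 other targets, 2 of 5 carnitine genes and both uptake and activation genes tested. The higher members were Acot2, Acaa2, Plin2, Crat and Cpt1a.

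Acadm had the largest decrease of all members under this hairpin. It stood at 12, 8.15 and 6.26 CPM under the Falcor hairpin, against 58.5, 62.9 and 59.3 CPM under the control hairpin (−2.80 ± 0.18, edgeR adjusted p = 5.05e-09). The Falcor hairpin libraries held 74, 39 and 57 Acadm counts, so the low level rests on few reads but on no overlap. The other dehydrogenases did not share this drop: Acadl (0.11 ± 0.07), Acads (−0.17 ± 0.08) and Acadvl (−0.14 ± 0.07) were not called. Hadha (−0.47), Hadhb (−0.35 ± 0.09), Eci1 (−0.52), Echs1 (−0.45) and Hadh (−0.43) were lower by smaller steps, and Acaa2, the mitochondrial thiolase, was higher at 170, 170 and 162 CPM, against 134, 133 and 130 CPM (0.34 ± 0.08).

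Ppara stood at 54.1, 45.6 and 57.6 CPM under the Falcor hairpin, against 114, 125 and 100 CPM under the control hairpin. All Falcor hairpin libraries lay below all controls (−1.10 ± 0.10, edgeR adjusted p = 5.23e-08). Creb3l3 was lower as well, with 5, 12 and 19 counts under the Falcor hairpin, against 59, 45 and 23 under the control hairpin (−1.79 ± 0.43), while Ppargc1a had a difference of 0.43 ± 0.25 that was not called (adjusted p = 0.157). Of the carnitine genes, Crot was lower (−0.96 ± 0.10), Cpt2 was lower (−0.33 ± 0.11), Crat was higher (0.29 ± 0.09) and Slc25a20 was not called. Cpt1a stood at 436, 418 and 442 CPM under the Falcor hairpin, against 392, 364 and 401 CPM under the control hairpin, a small increase of 0.16 ± 0.06 (edgeR adjusted p = 0.0339). This call was lost without control hairpin replicate 1 or 2, without Falcor hairpin replicate 1 or 3, and without a filter on low counts (adjusted p of 0.0548 to 0.147).

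Acot2, the mitochondrial thioesterase, rose under the Falcor hairpin to 96.5, 108 and 97.5 CPM, against 49.8, 55.7 and 57.5 CPM under the control hairpin (0.89 ± 0.09, edgeR adjusted p = 2.75e-07). Its neighbour Acot1 fell (−0.52 ± 0.08), as did the peroxisomal thioesterase Acot8 (−1.12 ± 0.28, 21 to 34 counts in Falcor hairpin libraries). Of the peroxisomal genes, Ehhadh, the bifunctional enzyme, was lower (−1.32 ± 0.22), followed by Acaa1a (−0.74) and Eci2 (−0.53), and Hsd17b4 and Decr2 were not called. Cd36, a fatty acid transporter, stood at 39.9, 38.3 and 34.1 CPM under the Falcor hairpin, against 50.2, 63.1 and 48.4 CPM under the control hairpin (−0.53 ± 0.12). Angptl4 (−0.87 ± 0.13), Vnn1 (−0.75 ± 0.18) and Pdk4 (−1.90 ± 0.55, from 5, 2 and 3 counts, against 20, 12 and 8) were lower, and Plin2 was higher (0.34 ± 0.07). The Pdk4 call was lost without Falcor hairpin replicate 3 (edgeR adjusted p = 0.0526).

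Hepatocyte markers were lower in the same libraries. All 6 tested of 10 were called lower under the Falcor hairpin, and their sum was 329 to 385 CPM, against 982 to 1110 CPM under the control hairpin. Macrophage markers summed to 47.9 to 50.6 CPM under the Falcor hairpin, against 3.44 to 5.21 CPM under the control hairpin, with 6 of 8 at 0, among them Clec4f, Adgre1 and Marco. The part of these shifts in the member results was not tested.

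**Figure D2:**
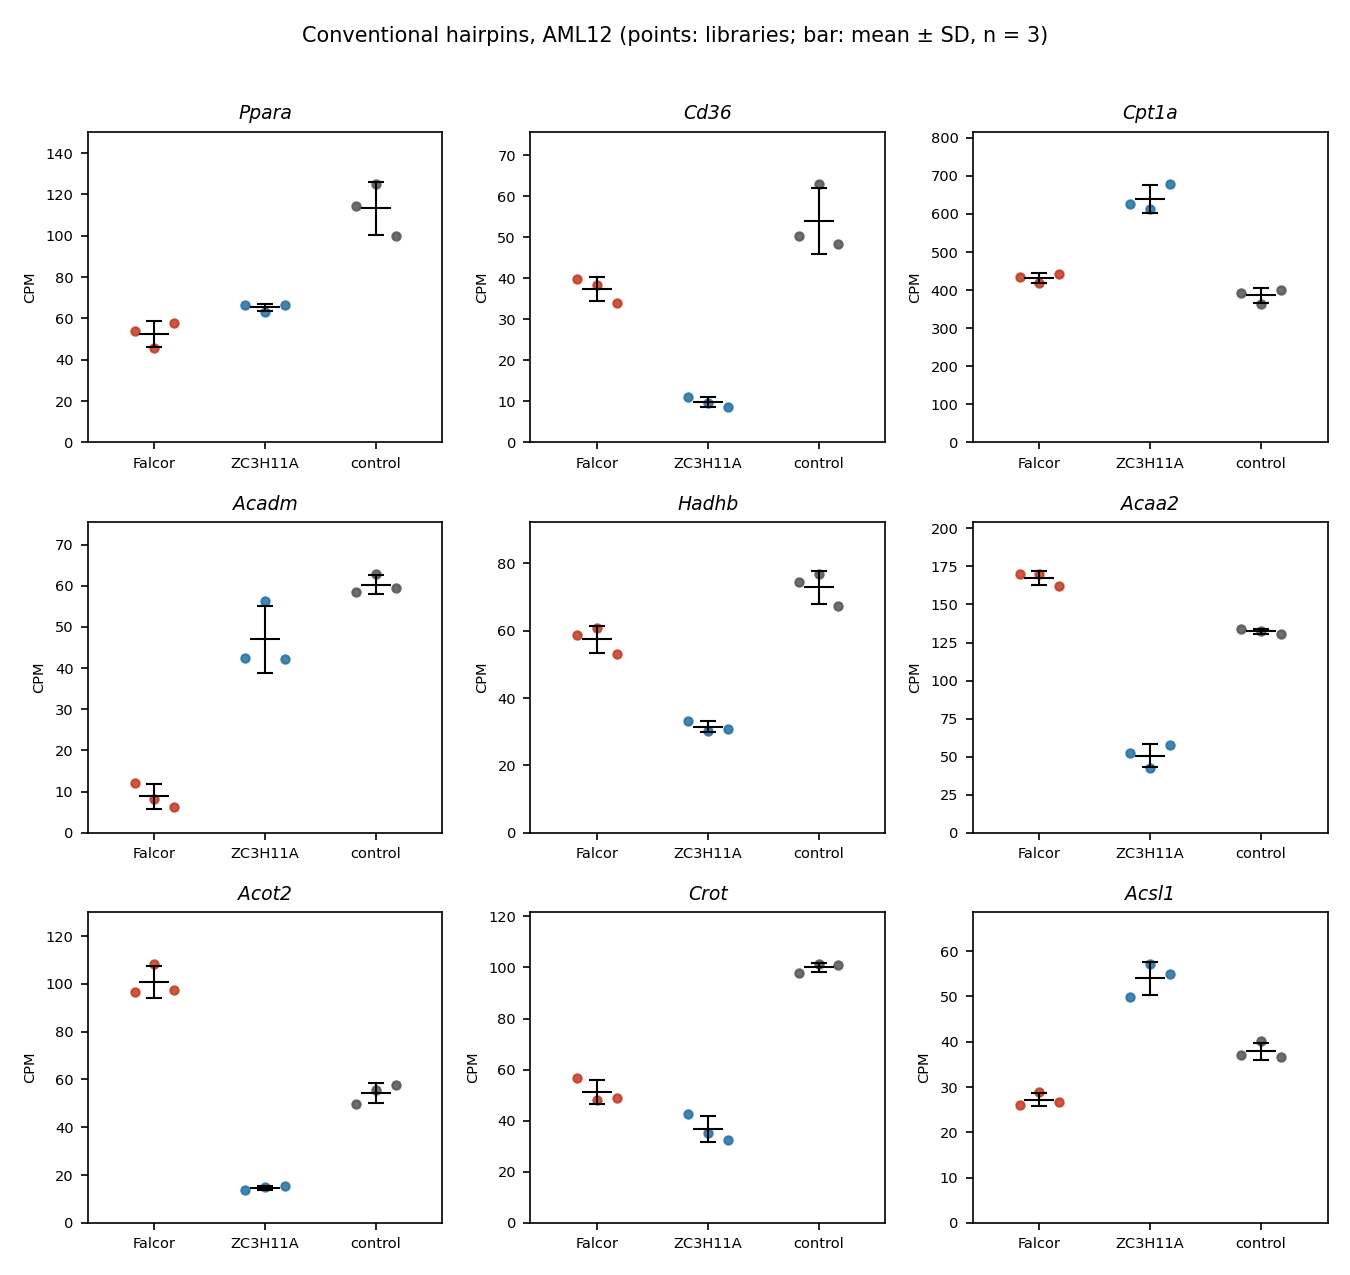
CPM (vertical axes, from 0) of 9 members under the conventional Falcor (red), ZC3H11A (blue) and control (grey) hairpins; points are libraries and bars the mean ± SD of 3. Ppara and Crot lie below the control under both hairpins, Acadm is lowest under the Falcor hairpin (6.26 to 12 CPM), and Acot2 lies above the control under the Falcor hairpin and below it under the ZC3H11A hairpin.

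The ZC3H11A hairpin, set against the same 3 control libraries, lowered 23 of 36 members, raised 6 and left 7 not called, with a median log2 fold change of −0.55. The background was 24.3% lower and 24.2% higher. All 3 regulators were lower: Creb3l3 by −2.55 ± 0.47, Ppargc1a by −0.81 ± 0.27, and Ppara by −0.79 ± 0.10 at 66.4, 63.1 and 66.3 CPM under the ZC3H11A hairpin, against the control values above. The Ppargc1a call was lost without control hairpin replicate 1 (edgeR adjusted p = 0.0659) or ZC3H11A hairpin replicate 3 (−0.53, adjusted p = 0.0945). Cd36 stood at 11, 9.71 and 8.54 CPM under the ZC3H11A hairpin, against 50.2, 63.1 and 48.4 CPM under the control hairpin, without overlap (−2.45 ± 0.15, edgeR adjusted p = 2.93e-10). Acsl1, which activates long-chain acids, was higher (0.51 ± 0.10).

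The carnitine genes split under the ZC3H11A hairpin. Cpt1a stood at 627, 612 and 680 CPM, against 392, 364 and 401 CPM under the control hairpin (0.73 ± 0.06, edgeR adjusted p = 2.17e-08), and Crat (0.51) and Cpt2 (0.47) were higher too. Slc25a20 (−1.10 ± 0.14) and Crot (−1.43 ± 0.10) were lower. Of the mitochondrial genes 8 of 11 were lower, led by Decr1, the dienoyl-CoA reductase (−1.76 ± 0.16), Acaa2 (−1.38 ± 0.09) and Hadhb (−1.21 ± 0.10), and Acadl was higher (0.27). Acadm stood at 42.5, 56.3 and 42.1 CPM, below all controls, but its difference of −0.37 ± 0.15 was not called (adjusted p = 0.0596). Of the peroxisomal genes Acaa1a (−0.99), Ehhadh (−0.74), Hsd17b4 (−0.55) and Eci2 (−0.36) were lower.

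Acot2 had its lowest values under the ZC3H11A hairpin, at 13.8, 15.2 and 15.3 CPM, against 49.8, 55.7 and 57.5 CPM under the control hairpin (−1.88 ± 0.11, edgeR adjusted p = 2.34e-10). Acot1 was lower as well (−1.15 ± 0.09), and Acot8 had a difference of 0.02 ± 0.27. Vnn1 was lower (−2.26 ± 0.21), as was Plin2 (−0.39 ± 0.08), while Pdk4 (0.95 ± 0.43) and Angptl4 (−0.18 ± 0.13) were not called. Etfdh, the link from the flavoprotein to ubiquinone, was higher (0.59 ± 0.08), Etfb was lower (−0.61) and Etfa was not called. Hepatocyte markers here were called higher in 3 and lower in 2 of 6 tested, with sums of 1009 to 1312 CPM under the ZC3H11A hairpin.

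Setting the Falcor hairpin directly against the ZC3H11A hairpin, 15 of 36 members were higher, 14 were lower and 7 were not called, with a median log2 fold change of 0.12, against a background of 28.4% higher and 28.6% lower. The largest positive difference was that of Acot2 (2.77 ± 0.11, edgeR adjusted p = 6.96e-13), followed by Cd36 (1.92 ± 0.15), Acaa2 (1.72 ± 0.09), Decr1 (1.69 ± 0.16), Vnn1 (1.5 ± 0.22) and Ppargc1a (1.24 ± 0.26). Acadm was lower under the Falcor hairpin (−2.43 ± 0.19), as were Acot8 (−1.14), Acsl1 (−0.99), Cpt2 (−0.80), Angptl4 (−0.70) and Etfa (−0.65). Pdk4 also was lower (−2.85 ± 0.52), from 5, 2 and 3 counts under the Falcor hairpin and 34, 17 and 15 under the ZC3H11A hairpin. Ppara differed by −0.31 ± 0.10, a call lost without Falcor hairpin replicate 2 (edgeR adjusted p = 0.0919), and Cpt1a by −0.57 ± 0.06.

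**Figure D3:**
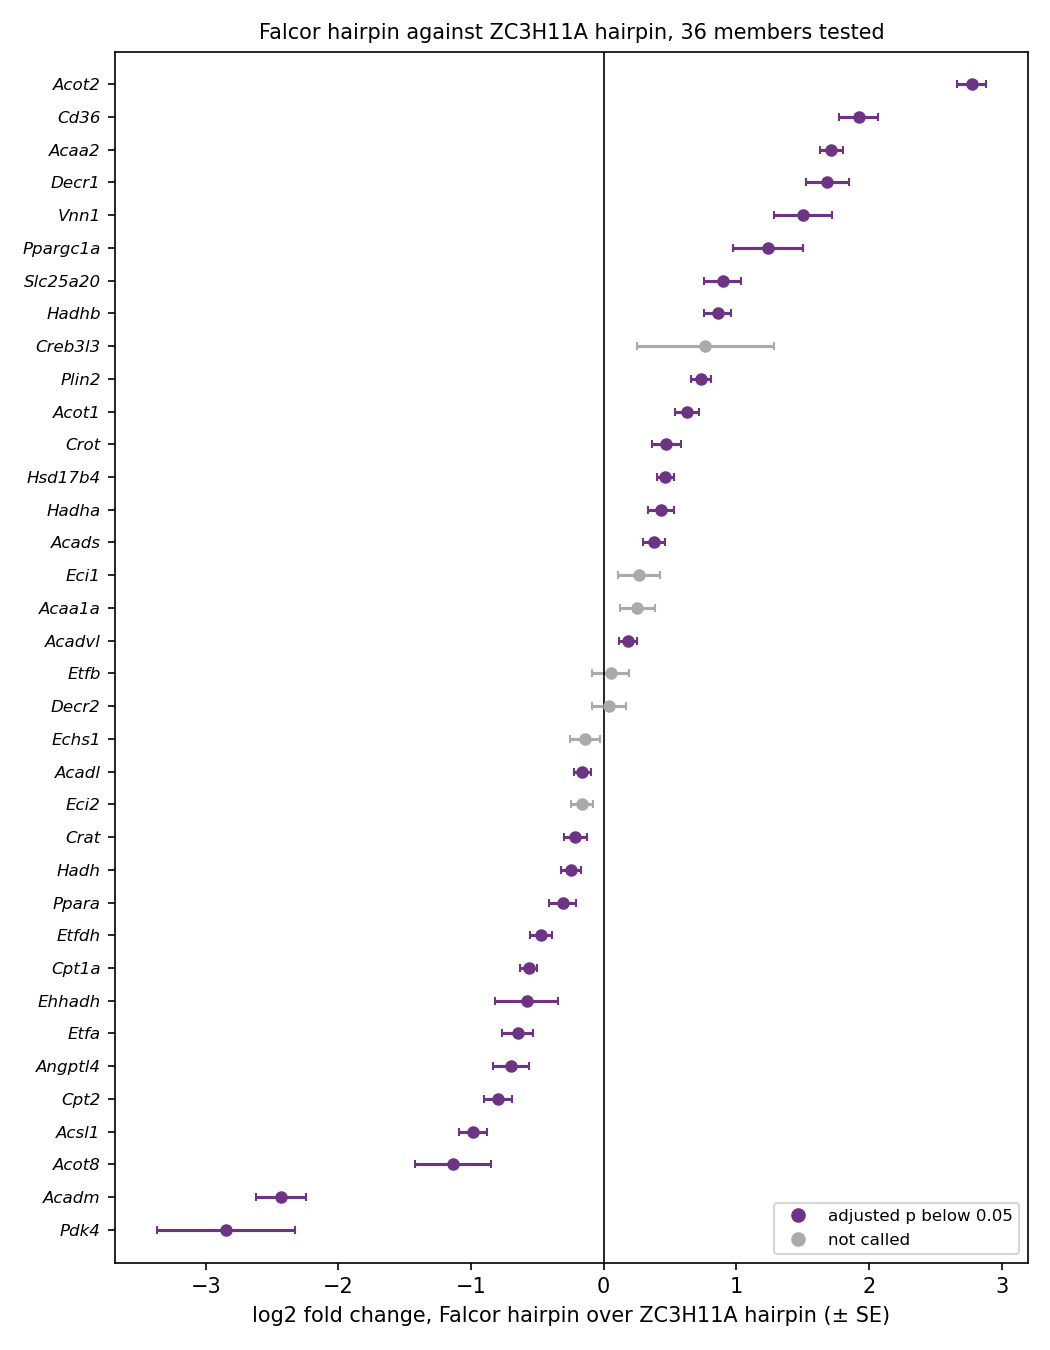
Log2 fold change of the Falcor hairpin over the ZC3H11A hairpin (horizontal axis, ± SE) for each of the 36 members tested, ordered by size; purple points are called at an adjusted p below 0.05 and grey points are not. The members spread on both sides of 0, from Acot2 at 2.77 to Pdk4 at −2.85.

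Of the 70 further pathway genes, 56 were tested in the conventional table. Under the Falcor hairpin 17 were higher and 17 were lower (median −0.04), against 25.5% higher and 26% lower of all genes. Under the ZC3H11A hairpin 20 were higher and 20 were lower (median 0.01), against 24.2% and 24.3% of all genes. Under the Falcor hairpin the carnitine transporter Slc22a5 (−2.0), Txnip (−1.81) and Acad11 (−1.58) were lower. Under the ZC3H11A hairpin Acsl4 (−2.14) and Scp2 (−2.09) were lower and Aldh3a2 was higher (1.32).

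In NCD livers the members lay mostly higher in Falcor KO than in control livers. Of 42 tested, 7 were called higher, 0 lower (3 at an unadjusted p below 0.05 in limma, against 11.2% of all genes) and 35 were not called, with a median log2 fold change of 0.19. The background was 4.2% higher and 1.85% lower of 9426 genes, with a median of 0.03. In all, 36 members had a positive and 6 a negative difference, where 54.6% of all genes were positive. Without overlap 11 members were higher and 3 lower, against 12.5% and 6.97% of all genes. The calls lay near the threshold, and their number changed when 1 liver was left out. It was 12 without control replicate 4, 1 without control column Ctrl-2 and 0 without each of the other 6. Where Ppara lost its call in this way, its difference stayed at 0.57 to 0.65 (limma adjusted p of 0.0581 to 0.0923), against 0.64 with all livers. All-gene counts for these settings are not given. Without rescaling the median of all genes moved to 0.21 and 15 members were called higher, with all genes at 1657 higher and 89 lower in place of 396 and 174.

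Ppara stood at 86.7, 81.4, 78.2 and 96.4 in NCD Falcor KO livers, against 59.2, 54.5, 52.2 and 52.4 in NCD control livers. All Falcor KO livers lay above all controls (0.64 ± 0.09, limma adjusted p = 0.031). Cpt1a stood at 87.7, 93.2, 105 and 100 in Falcor KO livers, against 70.5, 65.8, 78.9 and 70.2 in control livers (0.43 ± 0.09, adjusted p = 0.0379). Hadhb averaged 70.6 ± 3.68 in Falcor KO livers and 50.6 ± 7.67 in control livers (0.48 ± 0.11, adjusted p = 0.0442), whereas Hadha showed no such difference (0.01 ± 0.07). Eci2, a peroxisomal enoyl-CoA isomerase, was called as well (0.45 ± 0.10).

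Among the 7 calls in NCD livers were the thioesterases Acot12, Acot4 and Acot2, where 4.2% of all genes were called higher. Acot12, a cytosolic acetyl-CoA hydrolase, stood at 44.9, 42.2, 42.6 and 52.3 in Falcor KO livers, against 25, 25.7, 26.6 and 36.7 in control livers (0.67 ± 0.13, limma adjusted p = 0.0379). Acot4 stood at 13, 6.87, 6.95 and 14.4, against 4.55, 4.11, 4.26 and 5.24 in control livers (0.96 ± 0.23, adjusted p = 0.0485), and Acot2 was called from values below 5 (0.62 ± 0.14). Acot3, which was not tested, was listed at 10, 2, 1 and 10 in Falcor KO livers, against 1, 0, 0 and 0 in control livers as deposited. The larger differences of classical PPAR alpha targets did not pass the test: Cyp4a14 stood at 118, 28.5, 118 and 132 in Falcor KO livers, against 38.7, 20.6, 10.7 and 44 in control livers, and the groups overlapped (1.74 ± 0.59, adjusted p = 0.0978). Cyp4a10 (1.08 ± 0.35), Angptl4 (1.04 ± 0.32) and Cd36 (0.93 ± 0.36) likewise overlapped and were not called, with adjusted p from limma of 0.0914, 0.0825 and 0.132. Plin2 (−0.05 ± 0.14) and Acot1 (0.58 ± 0.26) were not called either. Pdk4 was listed at 1 in all 8 NCD livers as deposited and was not tested.

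Column makeup moved with genotype in the NCD table. The pair Rn7s1 and Rn7s2, genes of the 7S RNA, holds the same values throughout, as does a set of 3 rows listed by ID only, and these 5 rows made up 23.9 to 33.8% of the Falcor KO columns, against 35.5 to 47.9% of the control columns; their part in the member differences was not tested. With those rows left out before scaling, an alternative chosen after seeing the data, again 7 members were called. All genes then stood at 377 higher and 175 lower of 9454 tested. That refit does not test the part of these rows. Summed hepatocyte markers were 57397 to 72376 in Falcor KO livers, against 47700 to 60747 in control livers, with 1 of 10 called. Of the further pathway genes 2 of 55 tested were higher and 0 lower in Falcor KO livers, against 4.2% and 1.85% of all genes. These were Lpin2 (1.14 ± 0.19) and Acad11 (0.51 ± 0.10), limma adjusted p of 0.0316 and 0.0388.

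In HFD livers no member was called in either direction by limma. Of 39 tested, 0 were higher and 7 were lower at an unadjusted p below 0.05, against 7.31% higher and 5.36% lower of all genes. Of the 39 differences 32 were negative, against 45.7% of all genes, and the median was −0.15, against 0.02 over all genes. Adjusted calls over 5913 genes tested came to 0.0338% higher and 0.0169% lower. The smallest adjusted p, 0.158, was that of Cd36, whose lowest, median and highest values were 4.56, 5.78 and 14.9 in 6 Falcor KO livers, against 9.9, 15.5 and 25.2 in 5 control livers. The groups overlapped through Falcor KO replicate 2 and control replicate 5 (−1.13 ± 0.28). With Falcor KO replicate 2 left out, 1 member was called lower.

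Of the 7 members called in NCD livers, 5 were tested in the HFD table and none of these was called there, while Acot2 and Acot4 were not tested. Ppara ranged over 22.2, 41.6 and 48.6 (lowest, median and highest) in HFD Falcor KO livers and 33, 45.5 and 53.7 in HFD control livers (−0.23 ± 0.20, limma adjusted p = 0.672). Cpt1a ranged over 50.2, 61.6 and 82.1 in Falcor KO livers and 60.5, 71.5 and 82.6 in control livers (−0.20 ± 0.12). Hadhb (−0.02 ± 0.10), Acot12 (−0.08 ± 0.09) and Eci2 (0.08 ± 0.08) were not called. Acaa1b (−0.67 ± 0.26) and Plin2 (−0.52 ± 0.23) had the next largest negative differences, with medians of 167 and 75.7 in Falcor KO livers and 248 and 92.3 in control livers. Cyp4a14 ranged from 19.6 to 210 in Falcor KO livers and from 40.7 to 206 in control livers. Whether the genotype effect differs between the NCD and HFD tables was not tested, since the tables were normalized separately. The same 5 rows held 49.3 to 85% of HFD columns, the most in Falcor KO replicate 6. The adipocyte marker Cfd summed to 0 to 0.874 in Falcor KO livers, against 1.10 to 7.95 in control livers, with Adipoq, Plin1 and Lep at 0, and its part in the member values was not tested.

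**Figure D4:**
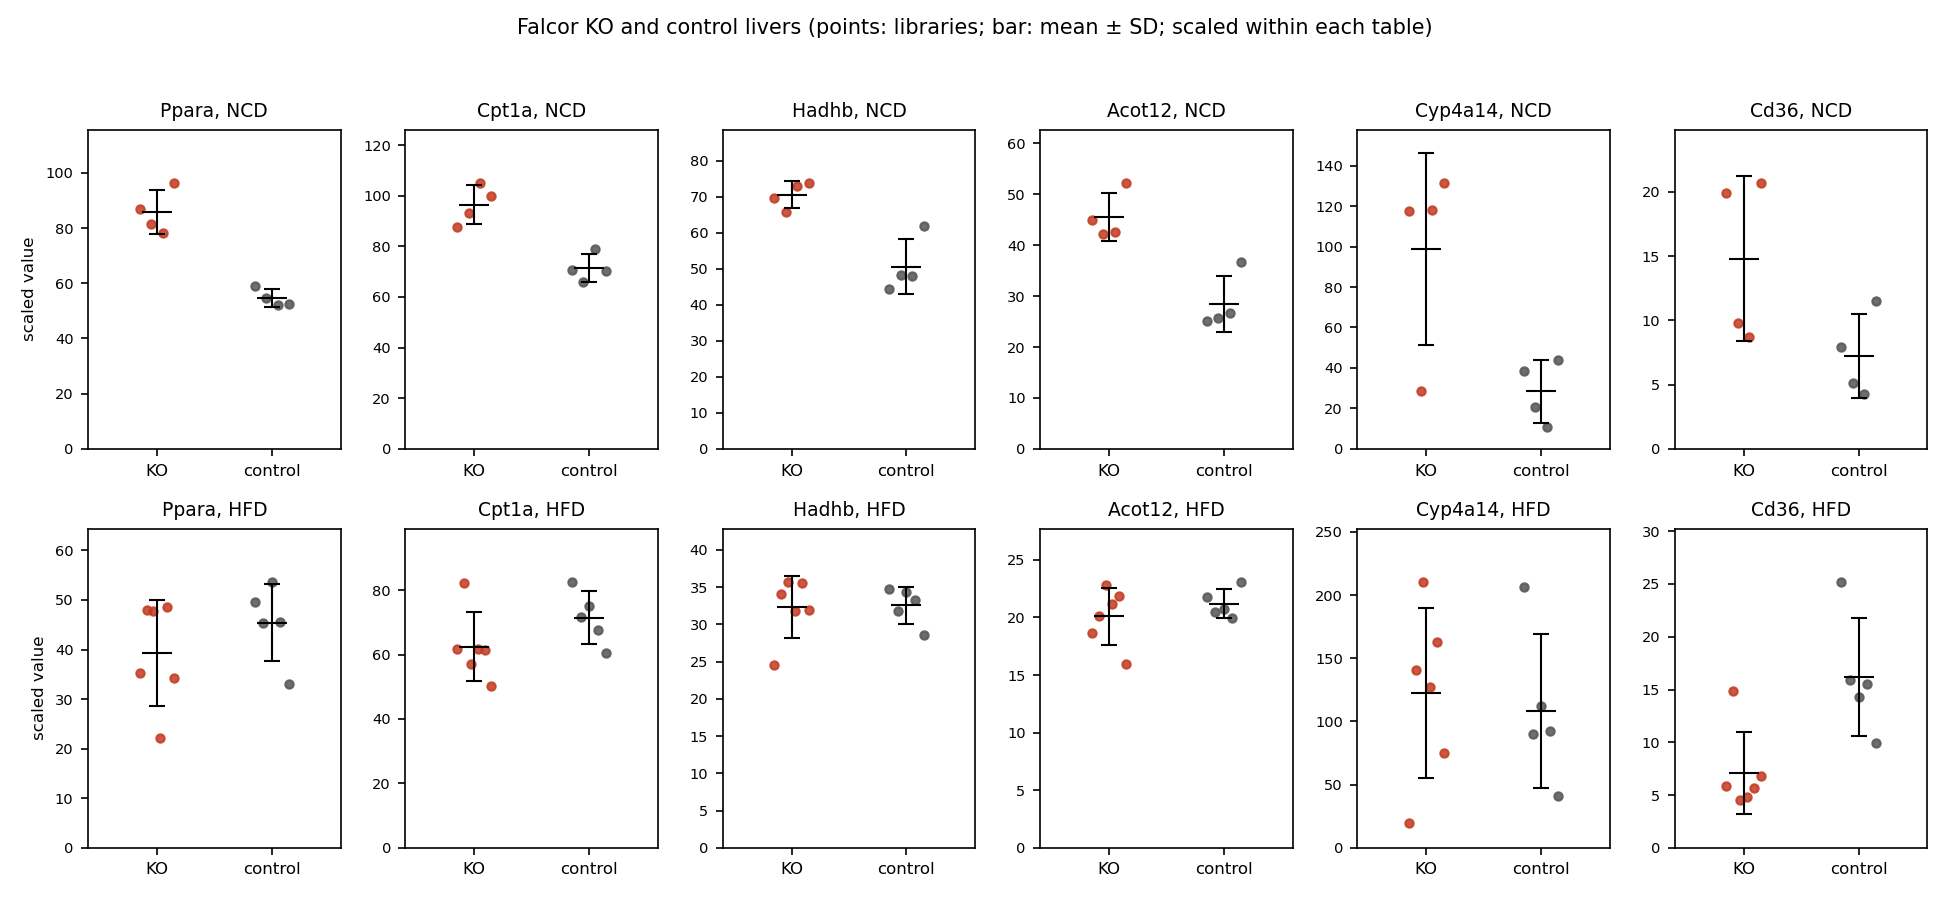
Scaled values (vertical axes, from 0) of 6 members in Falcor KO (red, left) and control (grey, right) livers, NCD in the upper row and HFD in the lower; points are livers and bars the mean ± SD (n = 4 and 4 NCD, n = 6 and 5 HFD). Ppara, Cpt1a, Hadhb and Acot12 separate the genotypes under NCD and overlap under HFD, and Cyp4a14 overlaps under both.

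The Falcor comparisons can be set side by side where they share no library. Of 34 members tested both with doxycycline and in the conventional design, 11 were called lower in both, against 12% of the 9371 genes tested in both: Acadm, Acsl1, Angptl4, Creb3l3, Crot, Echs1, Eci2, Etfa, Etfb, Hadha and Hadhb. Of the rest, 0 were called higher in both, against 9.79% of all genes, 4 were higher with doxycycline and lower in the conventional design (Acaa1a, Acot1, Cpt2, Pdk4), against 5.18%, and 3 were the reverse (Cpt1a, Crat, Plin2), against 5.51%. Of these, the doxycycline calls of Cpt2 and Pdk4 and the conventional calls of Cpt1a and Pdk4 were lost when single libraries were left out, as given above. The doxycycline comparison also carries the difference that the lines had before treatment. In the interaction against the untreated state, Acot1, Cpt2, Pdk4 and Cpt1a had negative terms that were called. The terms of Acaa1a, Crat and Plin2 were not called. Of the 7 members higher in NCD Falcor KO livers, Acot2 and Cpt1a were higher and Eci2, Hadhb and Ppara lower under the conventional Falcor hairpin. Cpt1a, Eci2 and Hadhb were lower with doxycycline in the inducible Falcor hairpin line. Of all genes, 25.5% were higher and 26% lower under the conventional Falcor hairpin, and 25.4% and 27% with doxycycline. The share of all genes called both in NCD livers and in either hairpin comparison was not computed.

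**Figure D5:**
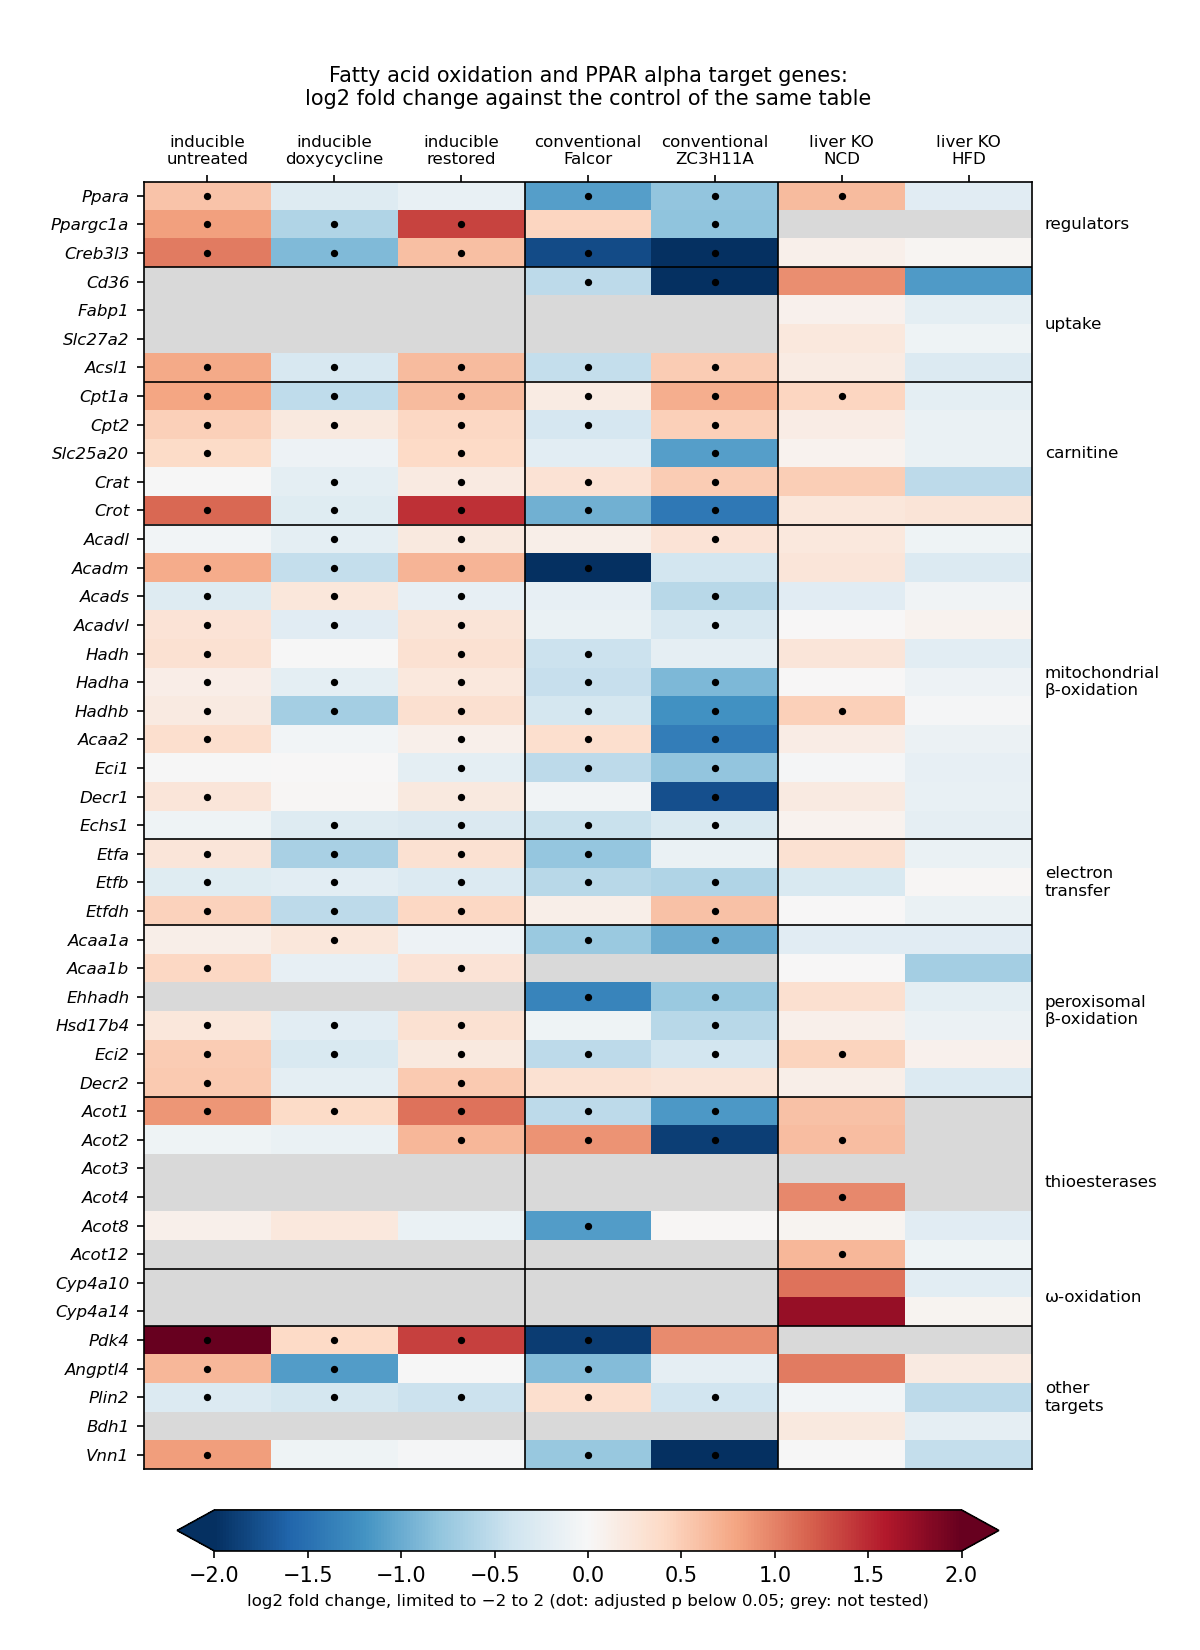
Log2 fold changes of all 45 members (rows, grouped by role) against the control of the same table in 7 comparisons (columns), with colour limited to −2 to 2, dots at an adjusted p below 0.05 and grey where a member was not tested. Most rows are red in the untreated and restored columns and blue in the doxycycline and both conventional columns, while the NCD column holds 7 dots and the HFD column none.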

How the data were processed

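Per the submitters' processing notes, kallisto, DESeq2 and mm10 were used, without versions or roles. The conventional table holds counts as deposited by the authors. The inducible, NCD and HFD tables hold whole numbers of a normalized score made by the authors, with no unit or depth stated in the sources used. Counts were tested with edgeR 4.0.16 (quasi-likelihood, filterByExpr, TMM) and the scores with limma 3.58.1 (trend, robust) on log2(value / TMM factor + 1) for genes with a mean of at least 3, in R 4.3.3. All groups of a table entered a single fit, with Benjamini-Hochberg adjustment over all genes. DESeq2 1.42.0 served as an alternative. Columns Ctrl-2 and Ctrl-3 (NCD) and Ctrl-1 and Ctrl-2 (HFD) were mapped to the control group only. Named throughout are Ppara, Ppargc1a, Cpt1a, Pdk4, Angptl4, Cd36, Acot1, Hadhb and Plin2, and per comparison up to 6 called members each way whose higher group averaged 5 or more without overlap, and up to 4 further pathway genes by p; other members are named to account for the list. Members and lists were chosen with earlier results of these data known. Fits were tested on simulated data. Intervals and errors cover the spread between libraries. Values of 1 further pathway gene that the naming rule picks are not reported here.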

Additional observations from a re-analysis of the deposited data

Results flagged for a closer look

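Differences between the lines in their response to doxycycline passed the test of the difference itself for these named members. Against the untreated state the interaction terms on the log2 scale were −1.92 for Creb3l3, −1.88 for Pdk4, −1.77 for Angptl4, −1.42 for Ppargc1a, −1.39 for Crot, −1.30 for Cpt1a, −0.86 for Hadhb, −0.83 for Ppara, −0.50 for Acot1 and 0.49 for Acads. Against the restored state they were −1.94 for Ppargc1a, −1.70 for Crot, −1.49 for Creb3l3, −1.15 for Acadm, −1.14 for Cpt1a, −1.11 for Angptl4, −1.0 for Hadhb, −0.97 for Pdk4, −0.72 for Acot1, 0.39 for Acads, 0.33 for Acaa1a and 0.21 for Eci1. The lines also differed before doxycycline, so part or all of each term lies in the untreated or restored libraries, as the values in the report show. Pdk4 and Acot1 were higher in the Falcor hairpin line with doxycycline. Their negative terms therefore come from the larger differences in the untreated and restored states. Pdk4 was also near the floor in both lines with doxycycline.

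Among 32 groups of liver values examined, 5 held a value far from the others of its group, where chance gives about 1 in 20. In NCD control livers replicate 4 had the highest Acot12 value (36.7). In HFD Falcor KO livers replicate 2 had the highest Cpt1a (82.1) and Cd36 (14.9) values, and replicate 1 had the lowest Hadhb (24.5) and Plin2 (44.2) values.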

How the results depend on the processing

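Counts of called members stayed within 1.5 times the main count for all 11 inducible and all 3 conventional comparisons under every scaling, pseudocount, filter, block and test tried. In NCD livers 7 members were called as reported, 15 without rescaling, 4 without a filter on low values and 4 in limma without trend and robust estimation. The replicate block was fitted on numbered libraries whose number occurs in both genotypes, which in NCD livers are replicates 3 and 4. Falcor KO replicates 1 and 2 and the control columns without a number were thus dropped. No member was called in these livers, either with the block or without it. The members' median log2 fold change was 0.18 there, against 0.19 as reported. The part of the smaller groups in the lost calls was not tested. Leaving out 1 library gave 0 to 12 members in NCD livers, 0 to 1 in HFD livers, 22 to 26 with doxycycline, 27 to 30 untreated, 27 to 28 restored, 25 to 27 under the conventional Falcor hairpin, 27 to 29 under the ZC3H11A hairpin and 24 to 27 between both. Plin2 had an interaction term against the restored state of −0.0898 without rescaling (limma adjusted p = 0.0393), against 0.08 as reported (adjusted p = 0.121). The all-gene median of −0.14 in that setting runs the same way. Replicate numbers did not pair the libraries: deviations of same-numbered libraries correlated between −0.11 and 0.20, and with the block every inducible and conventional member count moved by at most 1. Over all genes 570 were called in NCD livers, against 1746 without rescaling. In replicates 3 and 4 alone 9 genes were called with the block and 2 without it. In HFD livers 3 were called, against 29 without rescaling, 17 with median-ratio size factors, 12 without a filter and 7 with a pseudocount of 0.25. The count was 0 with a mean of at least 10 and 18 without the identical rows. It was 6 in the numbered libraries, here replicates 3 to 5 of each genotype, without the block. Over the alternatives, values of named genes lost their call 61 times in the NCD table, 29 times in the inducible and 9 times in the conventional table. The depth of the inducible and liver tables is unknown, so the precision of low values is not known. Leaving out the identical rows and the numbered libraries without a block were chosen after seeing the data.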
